A study of Homo sapiens with 4 samples.

Results

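Chromosome 11 carried 1970 of the 39507 anchors at which SMC1-bound chromatin contacts were mapped in TAE684-resistant Kelly neuroblastoma cells. They were taken by position alone, as every anchor on that chromosome in the genome build hg19, and split by their midpoint into 3 segments. The boundaries were proposed with earlier results of these data known, so levels by segment and contacts at a boundary are descriptions. The p arm, below 53.7 Mb, held 658 anchors, the middle segment from 53.7 to 114.6 Mb held 1061, and the distal segment above 114.6 Mb held 251. A further 37496 anchors on the other assembled chromosomes served for comparison.

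Kelly is an established human neuroblastoma line, and the cells used were a subline that resists TAE684, an inhibitor of the kinase ALK, and was kept in 1 µM of it. They were infected for 24 h with virus carrying a short hairpin against BORIS or the control hairpin shLUC and then selected for 48 h with puromycin, so that drug resistance, TAE684 exposure and infection were shared by both groups. Each group had 2 libraries, but each deposited table pools them, and no value below carries an error between replicates. Intervals are exact 95% intervals of the counts and cover counting error only, and every test compares the pooled tables, not the conditions. The library titles number the shBORIS and shLUC samples, and the labels do not say whether a number marks a different hairpin or a repeat. The level of BORIS in these cells was not analysed here.

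SMC1 is a subunit of cohesin, the ring complex that extrudes chromatin loops and is halted by the insulator protein CTCF. BORIS, also called CTCFL, is a germline paralog of CTCF that recognises a similar motif. In ChIA-PET, DNA fragments that the precipitated protein holds near each other are ligated, and both ends of the joint are read as a paired-end tag, or PET. The end of the long arm of chromosome 11 is often lost in neuroblastoma, and unbalanced translocations that exchange it for material of the long arm of chromosome 17 recur in this tumour. PETs that join different chromosomes arise largely from random ligation, so their number per anchor follows the copies of DNA present, but also how wide and how enriched the anchor is. That number is used below as a proxy for copy number, and it cannot be told apart from the latter factors by itself.

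The chromosome 11 anchors took part in 27172 of 288835 interchromosomal PETs in shLUC and 27351 of 286938 in shBORIS. Contacts within chromosome 11 gave 7096 of 146140 intrachromosomal PETs in shLUC and 8211 of 163041 in shBORIS. Of the intrachromosomal pairs on chromosome 11, 70.3% in shLUC and 68.2% in shBORIS rested on a single PET.

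The distal segment was poorer in interchromosomal PETs per anchor than the rest of the chromosome, in both tables alike. In shLUC the p arm had 14.1 such PETs per anchor (13.8 to 14.4), the middle segment 14.4 (14.2 to 14.7) and the distal segment 10.4 (9.98 to 10.8). In shBORIS the values were 14.04 (13.8 to 14.3), 14.6 (14.4 to 14.8) and 10.6 (10.2 to 10.96). The p arm and the middle segment thus lay close to the other chromosomes, which had 14.7 in shLUC and 14.5 in shBORIS, and the distal segment lay below all 3.

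The distal level was 0.719 times the middle level in shLUC (0.690 to 0.750) and 0.724 times in shBORIS (0.695 to 0.755). Against the p arm it was 0.736 (0.704 to 0.769) and 0.752 (0.720 to 0.785). The difference was smaller for the typical anchor. The median distal anchor had 9 interchromosomal PETs in each table and the median middle anchor 11. The upper quartiles lay further apart, at 13.5 and 13 PETs in the distal segment against 19 and 19 in the middle. The maximum of the distal segment was 38 PETs in shLUC and 36 in shBORIS, where the middle segment reached 116 and 132. Those middle values belong to 1 anchor of 9275 bp. A maximum also tends to grow with the number of anchors, which was 251 in the distal and 1061 in the middle segment.

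Distal anchors were also narrower. Their median width was 1040 bp, against 1147 bp in the p arm and 1170 bp in the middle segment. Only 7.97% of them were at least 1500 bp wide, compared with 16.3% and 20.3%. They were about as sparse as those of the p arm, at 12.3 anchors per Mb between the first and last anchor of the segment, against 13.2 in the p arm and 18.03 in the middle. A narrow anchor covers less DNA, and width moved with the level here. Per kb of anchor the distal level was 0.845 times the middle level in shLUC (0.810 to 0.881) and 0.851 times in shBORIS (0.816 to 0.887).

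When each anchor was set against the mean of equally wide anchors on the other chromosomes, in 20 classes of width, most of the difference was gone. Observed over expected PETs were 1.03, 1.01 and 0.952 for the p arm, middle and distal segments in shLUC. They were 1.04, 1.03 and 0.993 in shBORIS. The distal level adjusted for width was 0.943 times the middle one in shLUC (0.904 to 0.983) and 0.965 times in shBORIS (0.925 to 1.005), so that the second interval included 1. Anchors were defined on reads of these libraries by the authors, so their width and number may themselves follow the amount of DNA, and this was not tested.

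**Figure D1:**
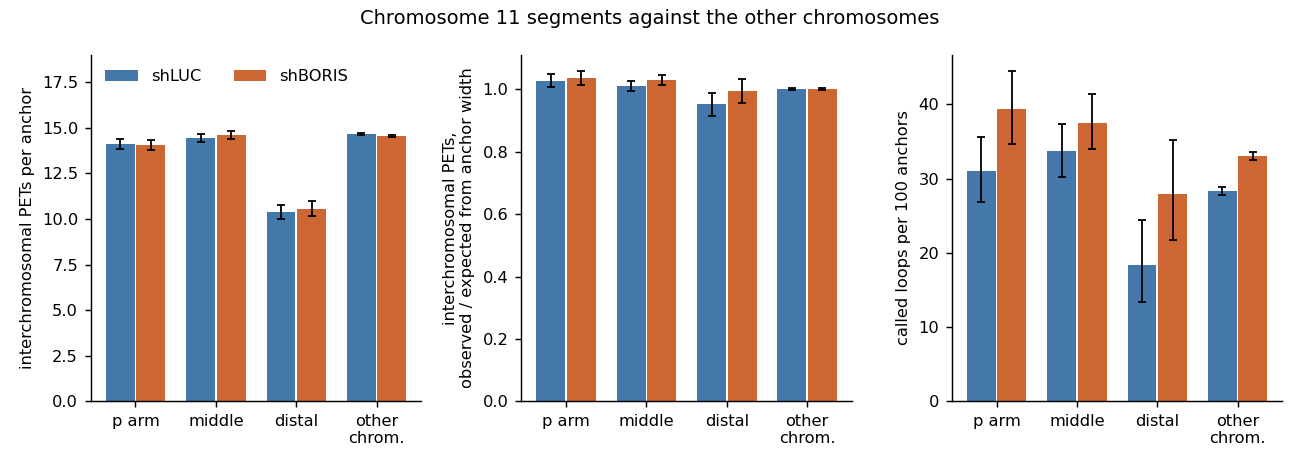
Interchromosomal PETs per anchor (left), the same as observed over expected from anchor width (centre) and called loops per 100 anchors (right) in the 3 chromosome 11 segments and on the other chromosomes; bars are the pooled shLUC and shBORIS tables and error bars exact 95% intervals of the counts. The distal bars lie at 10.4 and 10.6 PETs per anchor on the left and at 0.952 and 0.993 in the centre.

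The distal segment was low but not alone among stretches of its size. Of 130 windows of 20 Mb with at least 100 anchors on the other chromosomes, 13 had fewer interchromosomal PETs per anchor in shLUC and 12 in shBORIS. Per kb of anchor 8 and 20 windows were lower, and after adjustment for width 17 and 66 were. In shBORIS the distal segment therefore sat at the middle of the windows once width was taken into account. The count of narrower windows, 12 of 130, was similar to that of windows poorer in PETs per anchor.

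Along the chromosome, the level per anchor was lower just after the distal boundary than just before it, while the level adjusted for width was not. In the last 10 Mb before 114.6 Mb, 145 anchors with a median width of 1182 bp had 14.1 PETs each in shLUC and 13.9 in shBORIS. In the first 10 Mb after it, 146 anchors with a median width of 1043 bp had 11.2 and 10.9. Of the 145 anchors, 111 lay in the last 5 Mb, which had 15.4 PETs per anchor in shLUC and 15.1 in shBORIS. The window at 5 to 10 Mb before the boundary had 9.79 and 9.74, and that at 30 to 35 Mb 8.97 and 9.94. Both lay within the 8.91 to 11.5 and 8.96 to 11.2 of the distal windows with at least 10 anchors. Other middle windows reached 16.9 and 17.1. Adjusted for width, the same stretches had 0.958 (0.917 to 1.001) before and 0.996 (0.948 to 1.05) after the boundary in shLUC. In shBORIS they had 0.948 (0.907 to 0.990) and 0.998 (0.949 to 1.05). The adjusted level was thus slightly higher beyond the boundary, with intervals that overlapped.

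Within the distal segment, windows of 5 Mb gave adjusted levels of 1.01, 0.972, 0.844 and 0.941 in shLUC, from the boundary outwards. In shBORIS they gave 1.01, 0.977, 0.998 and 0.980. The low window at 10 to 15 Mb beyond the boundary, with 59 anchors, was therefore a feature of the shLUC table (upper limit 0.916), and in shBORIS its interval was 0.923 to 1.08. The lowest windows of the middle segment had 0.887 in shLUC, at 20 to 25 Mb before the boundary, and 0.866 in shBORIS, at 15 to 20 Mb before it.

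**Figure D2:**
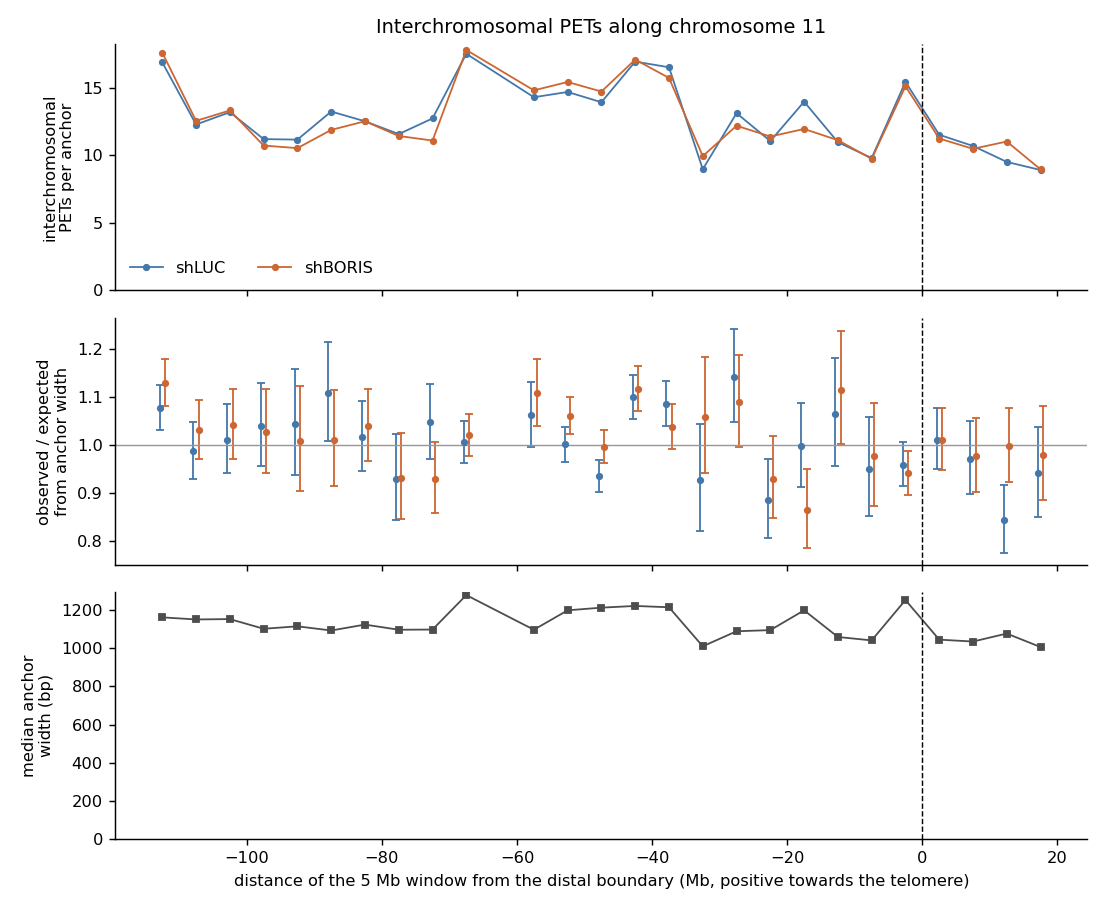
Interchromosomal PETs per anchor (top), observed over expected from anchor width with 95% intervals (middle) and median anchor width (bottom) in windows of 5 Mb with at least 10 anchors, by distance from the distal boundary (dashed line). The top and bottom curves both fall from the last window before the boundary, at 15.4 PETs per anchor in shLUC and a width of 1254 bp, to the first one after it, at 11.5 PETs and 1046 bp.

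Short contacts and called loops per anchor were fewer in the distal segment than in the other segments. Intrachromosomal PETs under 2 Mb, the range that held every loop called on the chromosome, numbered 2.04 per distal anchor in shLUC (1.87 to 2.23) and 2.52 in shBORIS (2.33 to 2.73). The p arm had 3.31 and 3.98 and the middle segment 3.55 and 4.02. The distal level was 0.576 times the middle one in shLUC (0.524 to 0.632) and 0.628 times in shBORIS (0.577 to 0.683), a larger difference than that of the interchromosomal PETs. Per 100 interchromosomal PETs, short contacts numbered 19.7 and 23.9 in the distal segment, 24.6 and 27.6 in the middle and 23.5 and 28.3 in the p arm. Adjusted for anchor width, the ends of short PETs were 0.960 times the expected number in the distal segment in shLUC and 1.06 times in shBORIS, against 1.15 and 1.15 in the middle and 1.13 and 1.21 in the p arm. The distal segment was not unusual for its size, since 45 of the 130 windows elsewhere had fewer ends of short PETs per anchor in shLUC and 60 in shBORIS. Parts of the middle segment were sparser still. Its 6 windows from 35 to 5 Mb before the boundary had adjusted levels of 0.404 to 0.761 in shLUC and 0.348 to 0.651 in shBORIS, below the 0.800 to 1.19 and 0.919 to 1.11 of the 4 distal windows with more than 2 anchors.

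A loop was called where a pair on 1 chromosome had at least 3 PETs and an authors' Bayes probability of at least 0.9. Called loops within the segments numbered 204 in shLUC and 259 in shBORIS in the p arm, 357 and 398 in the middle, and 46 and 70 in the distal segment. Per 100 anchors that was 31.0 and 39.4, 33.6 and 37.5, and 18.3 and 27.9. Distal calls per anchor were 0.545 times those of the middle segment in shLUC (0.392 to 0.742) and 0.744 times in shBORIS (0.568 to 0.961). Within 10 Mb of the boundary the ratio was 0.889 in shLUC (0.543 to 1.45) and 0.949 in shBORIS (0.610 to 1.48), so a difference next to the boundary was not detectable at this depth. Chromosome 11 as a whole ranked 6th of 23 chromosomes in calls per anchor in both tables.

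A smaller part of the distal calls had many PETs, although these calls were few. Of the distal calls, 17.4% in shLUC (8 of 46) and 28.6% in shBORIS (20 of 70) had 5 or more PETs. The middle segment had 36.4% and 38.7% and the p arm 44.1% and 43.2%. These shares were not tested and have no interval here. Calls of 10 or more PETs numbered 47 on chromosome 11 in shLUC and 65 in shBORIS, and of these 1 and 0 were distal. The distal calls had a median span of 83.8 kb in shLUC and 106.0 kb in shBORIS, longer than the 55.8 and 53.0 kb of the middle segment. The p arm had 70.7 and 64.6 kb, and the other chromosomes 64.2 and 58.5 kb. No call on chromosome 11 spanned 2 Mb, and the longest, in the middle segment, spanned 1214 kb.

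The strongest loops of the chromosome lay outside the distal segment. The anchor at 61664528-61667575 contacted 61714422-61716003 across 49.2 kb with 26 PETs in shLUC and 25 in shBORIS. Across 118 kb, 56897979-56899749 contacted 57015715-57018084 with 26 and 24 PETs. Both lie in the middle segment, and the second is among its first anchors beyond the centromere. A neighbour of that pair, from 56883660-56884793 to the same 57015715-57018084, had 13 and 19 PETs, so that 1 anchor received both loops. Among the 10 loops with the most PETs, a further middle one, from 61244504-61246288 to 61283461-61285519, had 14 and 18.

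In the p arm, 2448887-2450446 contacted 2551989-2555629 with 19 PETs in shLUC and 23 in shBORIS. The loop from 34195377-34196858 to 34378500-34381713 had 23 and 16 PETs. The 313 kb loop from 1858197-1859935 to 2170167-2174051 had 13 and 24. Its second anchor, at 2170167-2174051, was also the p arm anchor with the most calls over both tables, 7 in shLUC and 12 in shBORIS. In shLUC alone 44968625-44973685 had more, with 9 calls there and 7 in shBORIS. The strongest loop near the distal boundary still lay on its centromeric side, from 113906219-113907938 to 114130301-114134246, with 17 and 20 PETs.

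Distal loops led with smaller counts. The first, from 125217742-125219451 to 125273780-125275490, had 11 PETs in shLUC and 5 in shBORIS. The anchor at 118777331-118778966 formed both of the next, with 8 and 5 PETs to 118826757-118828055 and with 4 and 8 PETs to its neighbour 118779486-118780525. It was also the most connected distal anchor, with 4 calls in each table, whereas middle anchors such as 71947533-71956807 had 8 and 9 and 72122201-72123849 had 11 and 6. The former spanned 9275 bp and was the widest of these anchors, with 116 and 132 interchromosomal PETs against 33 and 21. The deposited files name no gene for an anchor, and gene positions in hg19 were not used here.

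Few short contacts crossed the distal boundary, about as many as at other positions of the chromosome. Long ones ranked low, with intervals that included 1. PETs joining an anchor below 114.6 Mb to one above it numbered 110 in shLUC and 122 in shBORIS, of which 9 and 7 spanned under 2 Mb. The number of long ones expected from random ligation was taken from the interchromosomal PETs of the anchors on both sides. Long PETs were 0.861 times that number in shLUC (0.701 to 1.05) and 0.951 times in shBORIS (0.786 to 1.14). For comparison, PETs were counted across the 50 whole-megabase positions of chromosome 11 that had at least 10 anchors within 1 Mb on each side. For long PETs only 1 of these positions was lower than the boundary in shLUC and 8 in shBORIS, with medians of 0.908 and 1.06 times the expected number. The positions share most of these PETs with their neighbours. At 113.0, 114.0 and 115.0 Mb the long PETs were 0.856, 0.877 and 0.870 times the expected number in shLUC. In shBORIS they were 0.967, 0.924 and 0.955 times that number. The median number of short PETs was 8 in shLUC and 10 in shBORIS, and 26 and 20 of the positions had fewer crossing PETs than the boundary. Set against random ligation, the short PETs across the boundary were 32.4-fold enriched in shLUC and 24.8-fold in shBORIS, where the medians of the positions were 28.9-fold and 35.9-fold.

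The anchors themselves leave a gap at the boundary. The last anchor before it ends at 114310743 and the first beyond it starts at 114609302, so a shift of the boundary within that gap changes none of these counts. The crossing density changed steeply over a short distance, as it did at other places of the chromosome. At 114.0 Mb, 71 short PETs crossed in shLUC and 60 in shBORIS, at 115.0 Mb 1 and 2, and at 116.0 Mb 11 and 4. Elsewhere the number fell from 111 and 144 at 2.0 Mb to 4 and 6 at 3.0 Mb. It also fell from 120 and 184 at 45.0 Mb to 15 and 19 at 46.0 Mb.

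Only 1 called loop crossed the boundary, in shLUC. It joined 114210564-114211746 to 114632682-114633904 across 422 kb with 4 PETs in shLUC and 1 in shBORIS. With so few PETs, the scaled ratio of 0.224 had an exact interval from 0.00455 to 2.26. Apart from this loop, no short crossing pair had more than 1 PET in a table. Of the 10 short crossing pairs, 7 ended at the first 3 distal anchors, which are described next, and the others ended at the fifth and sixth.

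**Figure D3:**
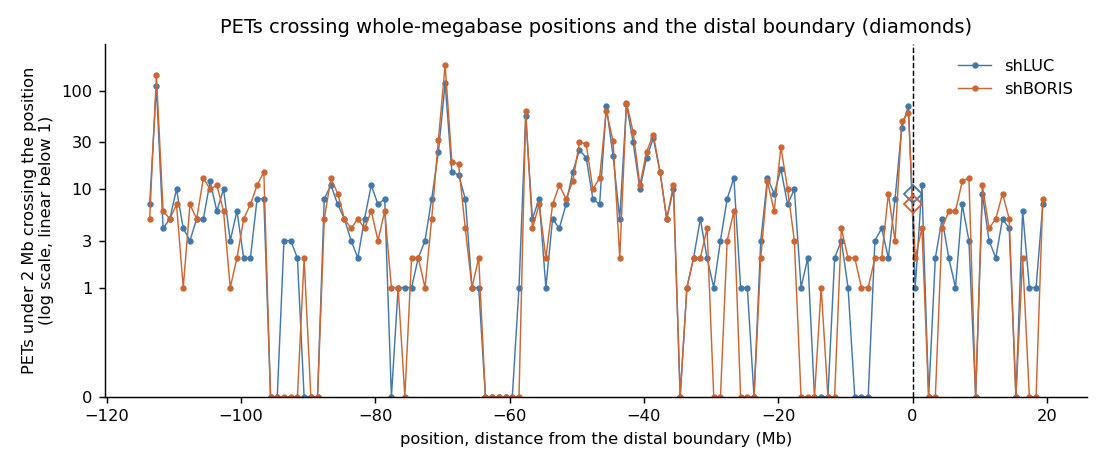
PETs under 2 Mb that cross each whole-megabase position of chromosome 11, on a log axis that is linear below 1, by distance from the distal boundary (dashed line); diamonds are the boundary itself. The boundary, with 9 PETs in shLUC and 7 in shBORIS, lies between the high position at 114.0 Mb and the low one at 115.0 Mb.

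The first 3 distal anchors had a concentrated set of contacts with chromosome 17. These anchors lie within 37.1 kb, at 114609302-114610454, 114632682-114633904 and 114644839-114646363. Together they shared 11 PETs in shLUC and 11 in shBORIS with anchors between 39150137 and 39824218 on chromosome 17, an interval of 674 kb. Random ligation would give 0.0587 and 0.0611, so the sum of 22 PETs was 184 times the expected number (115 to 278). The anchors and the interval were chosen after these contacts had been seen, and the ratio is a description with no test. Both pooled tables showed the contacts with the same number of PETs.

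The third anchor carried most of them. At 114644839-114646363, 9 of 36 interchromosomal PETs in shLUC went to that interval, which is 25% (12.1 to 42.2). In shBORIS 8 of 35 did, which is 22.9% (10.4 to 40.1). The first anchor had 2 such PETs in each table and the second 0 and 1. The pairs with the most PETs joined the third anchor to 39478196-39479401, with 3 PETs in shLUC and 2 in shBORIS, and to 39818193-39819959, with 4 and 0. Single pairs thus differed between the tables where the sum did not. In all, 8 of the 17 anchors in the chromosome 17 interval were contacted.

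Few PETs lay just outside the first 3 distal anchors and the chromosome 17 interval. Both were chosen by the contacts, so a drop at their edges was largely fixed in advance. The next 20 distal anchors had 0 PETs with the interval in either table, where random ligation would give 0.361 in sum, so that up to 10.2 times that number is allowed by the count of 0. The last 20 anchors before the boundary had 1 PET, in shLUC, against 0.575 expected. It fell in the last 3 of them, where 0.0403 were expected, or 24.8 times that number (0.628 to 138). For distal anchors 4 to 6 the count of 0 allowed up to 165 times the expected number. At the nearest anchors these counts therefore cannot show how sharply the contacts ended. On chromosome 17, the 2 Mb before the interval gave 1 PET with the first 3 distal anchors, against 0.302 expected. The 2 Mb after it gave 0, against 0.652 expected. On chromosome 17 outside the interval these anchors had 15 PETs in sum, 1.25 times the expected number (0.698 to 2.06). Their excess with chromosome 17 thus lay in the interval, which was drawn around it. The distal segment as a whole contacted chromosome 17 at 0.999 times the expected number (0.906 to 1.10).

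The same anchors also had short contacts on chromosome 11 in both directions, which were not compared with those of similar anchors. Leaving out PETs among themselves, the 3 had 7 PETs under 2 Mb towards the centromere in shLUC and 6 in shBORIS, and 3 and 5 towards the telomere. In each table their PETs with the chromosome 17 interval, which was drawn around them, exceeded their short PETs in each direction taken alone. Whether the DNA of these 2 chromosomes is joined at this place in the cells was not tested.

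**Figure D4:**
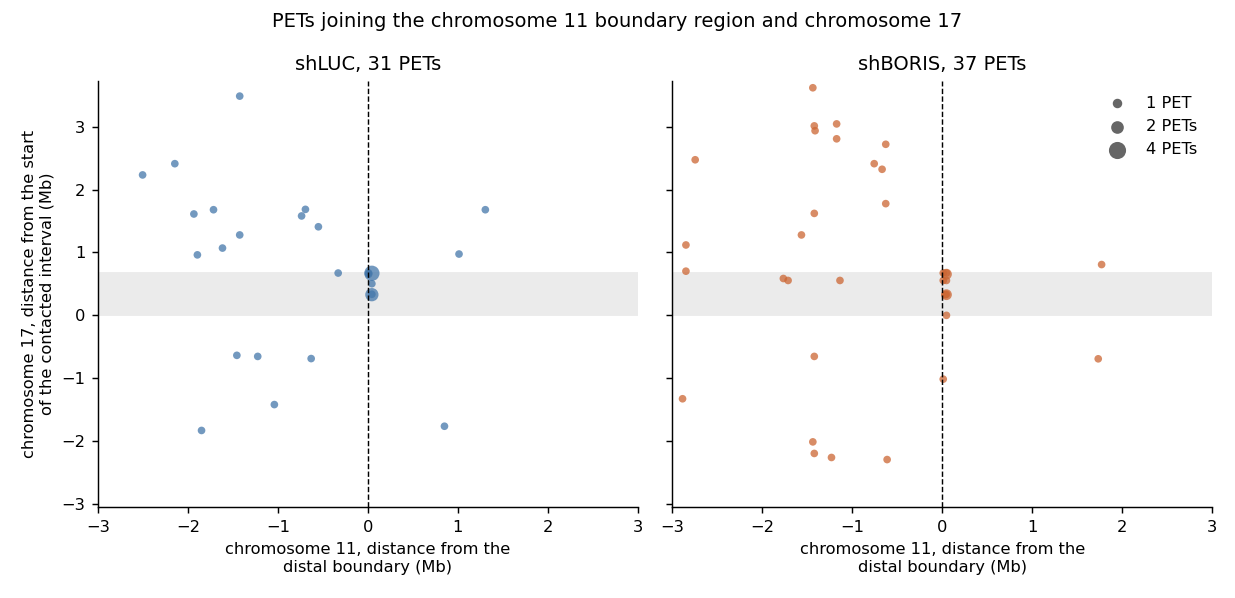
PETs joining anchors within 3 Mb of the distal boundary of chromosome 11 (dashed line) to anchors within 3 Mb of the contacted chromosome 17 interval (grey band), in shLUC (left) and shBORIS (right); the area of a point follows its PETs. Of 68 PETs drawn, 22 join the first 3 distal anchors to the interval, and no other pair has more than 1 PET over both tables.

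The same proxy was computed along chromosome 17, on both sides of the interval that the contacts had set. Adjusted for width, the 239 anchors in the 10 Mb before the interval had 0.951 times the expected interchromosomal PETs in shLUC (0.918 to 0.984) and 1.01 in shBORIS (0.976 to 1.05). The 444 anchors in the 10 Mb after it had 1.12 (1.10 to 1.14) and 1.19 (1.17 to 1.22). Over the whole chromosome the step was smaller, from 0.967 before the interval to 1.05 after it in shLUC and from 1.01 to 1.07 in shBORIS. The level after the interval was thus higher than before it in both tables. The 17 anchors of the interval had 1.57 (1.43 to 1.73) and 1.47 (1.33 to 1.61). For comparison, the adjusted levels of the 130 longer windows described above ran from 0.875 to 1.293 in shLUC. In shBORIS they ran from 0.860 to 1.405. The levels on both sides of the interval lay within these ranges. Whether the step reflects copies of DNA or the enrichment of the anchors was not tested.

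Among all tiles of 1 Mb of chromosome 11 against 1 Mb of another chromosome, the tile of 114 to 115 Mb with 39 to 40 Mb of chromosome 17 had the most PETs, 12 in shLUC and 11 in shBORIS, or 37.0 times the expected number. The tile of the first Mb of chromosome 11 with the first Mb of chromosome 17 followed, with 7 and 11 PETs, or 37.6 times the expected number, and the third had 13 PETs where 8.27 were expected. Only 5 of 343089 tiles had at least 3 PETs in each table and at least 5 times the expected number, and the 3 not yet named had 6 or 7 PETs in sum. Those were the first Mb of chromosome 11 with 132 to 133 Mb of chromosome 7, 36 to 37 Mb with 44 to 45 Mb of chromosome 20, and 62 to 63 Mb with 112 to 113 Mb of chromosome 6.

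By whole partner chromosome, the distal segment had no strong preference. Over both tables, observed over expected PETs ranged from 0.790 with chromosome 21 (0.544 to 1.11) to 1.12 with chromosome 1 (1.05 to 1.21), over 22 partners. With chromosome 1, 377 PETs were seen in shLUC against 324.3 expected, and 361 in shBORIS against 332.1. The value for chromosome 1 was also the highest in the middle segment, at 1.06, and it was not particular to the distal anchors. The 2 partners whose interval lay below 1 were chromosome 14, at 0.832 (0.695 to 0.989), and chromosome 20, at 0.853 (0.749 to 0.967). Chromosome 14 had 0.930 (0.727 to 1.17) in shLUC and chromosome 20 had 0.936 (0.786 to 1.11) in shBORIS. No distal partner, chromosome 1 included, had an interval on the same side of 1 in both tables.

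Contacts between the segments were near the level of random ligation. The middle and distal segments shared 75 PETs in shLUC and 81 in shBORIS, 1.02 and 1.07 times the expected number. The p arm and the distal segment shared 35 and 41, or 0.788 (0.549 to 1.10) and 0.905 (0.649 to 1.23). The p arm and the middle segment shared 233 and 297, or 0.893 (0.782 to 1.02) and 1.12 (0.999 to 1.26). No loop was called between the arms in either table.

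The question of the knockdown is whether contacts on chromosome 11 differed between the tables. For each segment and each kind of PET, the shares in the pools were put through Fisher's exact test, two-sided, with Benjamini-Hochberg adjustment over the 6 tests. Intrachromosomal PETs of the distal segment made up 0.357% of all in shLUC and 0.392% in shBORIS, which scaled to 1.10 (0.976 to 1.23, adjusted p = 0.237 by the exact test). By the same exact test, for the middle segment the ratio was 1.01 (0.964 to 1.05, adjusted p = 0.846) and for the p arm 1.07 (1.01 to 1.13, adjusted p = 0.120). Interchromosomal ratios were 1.00, 1.02 and 1.02 for the p arm, middle and distal segments, with adjusted p-values from 0.237 to 0.846. None of the 6 passed the threshold of 0.05, and 1 had an unadjusted p under it, the p arm at 0.0200. Scaled to PETs of all kinds instead, the intrachromosomal ratios were 1.15, 1.09 and 1.18 for the p arm, middle and distal segments and all passed (Fisher's exact test, adjusted p from 3.79e-06 to 0.00874), while the interchromosomal ratios turned below 1. Of these, the p arm at 0.963 (adjusted p = 0.0149, Fisher's exact test) and the middle segment at 0.977 (adjusted p = 0.0479, Fisher's exact test) passed and the distal segment did not. That scaling carries the larger intrachromosomal share of the whole shBORIS table.

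The segments did not differ detectably from each other in this shift either. The ratio of the distal to the middle intrachromosomal shift was 1.09 and that of the p arm to the middle 1.06, both with an adjusted p of 0.532. By span, the scaled ratio on chromosome 11 was 1.12 (1.05 to 1.21) for contacts under 20 kb and 0.980 (0.879 to 1.09) for contacts above 2 Mb. Relative to the other chromosomes, with an exact test, these were 1.04 (0.967 to 1.12, adjusted p = 0.504) and 1.11 (0.995 to 1.24, adjusted p = 0.322), and none of the 5 span classes passed.

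No single chromosome 11 contact passed the test between the tables. Of 209 pairs with at least 10 PETs in sum, 0 passed Fisher's exact test with adjustment over all 3951 pairs of the genome, where 0.0506% passed. With an unadjusted p under 0.05 there were 6 pairs higher and 6 lower in shBORIS, or 5.74%, against 5.69% of all pairs. The smallest adjusted p was 0.505. It belonged to the pair from 62160398-62163361 to 62309714-62311229, with 10 PETs in shLUC and 1 in shBORIS. In the other direction, 113376144-113377731 contacted 113390100-113391911 with 2 and 14 PETs (Fisher's exact test, adjusted p = 0.511). Both were named for their p-values after these were seen. Of the 7 distal pairs tested, 0 had an unadjusted p under 0.05.

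Summed over all its contacts, no anchor passed either. For intrachromosomal PETs 995 anchors were tested and 0 passed Fisher's exact test, where 0.0204% of all anchors did, and 28 were higher and 28 lower at an unadjusted p under 0.05 (5.63%, against 6.43% of all). The anchor at 96989250-96990727 fell short with 11 PETs in shLUC and 0 in shBORIS (adjusted p = 0.224, Fisher's exact test). For interchromosomal PETs 1769 were tested and 0 passed, where 0.014% of all did, with 46 higher and 34 lower at an unadjusted p under 0.05 (4.52%, against 5.56% of all). The anchor at 45065387-45068228 in the p arm came closest, with 17 PETs in shLUC and 53 in shBORIS, a scaled ratio of 3.14 (1.79 to 5.78, adjusted p = 0.0661, Fisher's exact test). It passed when only anchors with at least 20 PETs in sum were tested (adjusted p = 0.0412, Fisher's exact test). Its intrachromosomal PETs numbered 30 and 63 (adjusted p = 0.490, Fisher's exact test). Both kinds of contact at that anchor were more numerous in shBORIS, and its coverage was not measured apart from them.

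Of 1003 pairs called on chromosome 11 in either table, 332 were called in both, 276 in shLUC alone and 395 in shBORIS alone. The shared part was 33.1% (30.2 to 36.1), against 34.8% over all chromosomes. In the distal segment 22 of 94 were shared, or 23.4% (15.3 to 33.3), against 34.6% in the p arm and 33.9% in the middle segment. Most calls of 1 table had some PET in the other. This held for 19 of 24 distal calls of shLUC alone and for 40 of 48 of shBORIS alone. Strong loops were shared more often, with 46 of the 47 shLUC calls of 10 or more PETs called in shBORIS and 60 of the 65 shBORIS calls called in shLUC. The lower shared part of the distal segment therefore stood beside its lower PETs per call, whose part in it was not tested.

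**Figure D5:**
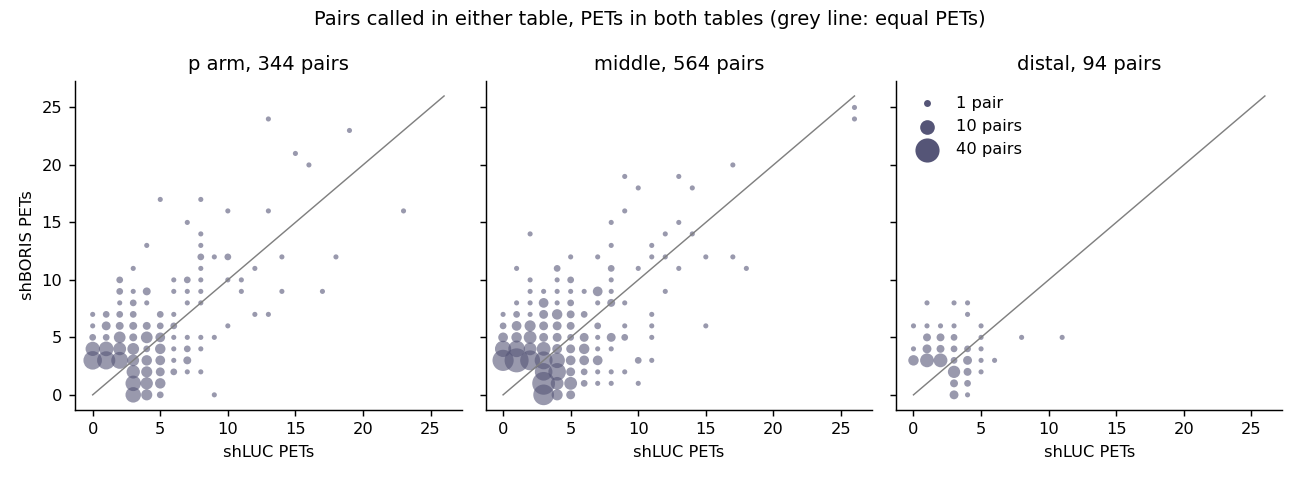
PETs in shLUC (horizontal) and shBORIS (vertical) of the pairs called in either table within the p arm (344 pairs), middle (564 pairs) and distal segment (94 pairs); the area of a point grows with the number of pairs and the grey line marks equal PETs. The strongest middle pairs reach 26 PETs in shLUC, and the distal pairs end at 11.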

How the data were processed

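Members, segments and the regions listed were chosen with earlier results of these data known. The submitters' processing notes name cutadapt 1.8, Bowtie and hg19. Which program defined anchors is not given in the sources used here. For each group 1 table was deposited, which pools its 2 libraries. The PET count of a pair is an unnormalized count, per the file headers. A hypergeometric p-value by the authors stands beside each pair, per the file headers, and was not used. The Bayes probability is a deposited fraction from 0 to 1, used only for calls. The shBORIS table lacks a header, and its columns were taken to have the order of those in the shLUC table.

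Totals were 434975 PETs in shLUC and 449979 in shBORIS. Scaled ratios divide by the table's PETs of the same kind. Expected PETs of random ligation multiply the interchromosomal PETs of both sides and divide by a constant that returns each table's interchromosomal total. Intervals of observed over expected take the expected number as fixed. Fisher's exact tests were two-sided, adjusted by Benjamini-Hochberg over all features tested, and checked on simulated counts. Intervals are exact, at 95%, and PCR-amplified PETs without molecular identifiers are not independent molecules. Regions were named by rule: the 10 loops with the most PETs, the 3 strongest loops and 3 anchors with the most calls per segment, loops called across 114.6 Mb, anchors beside the boundaries and features past a threshold. Chromosome 17 contacts, tiles, the adjustment for width and the smallest p-values were added after values were seen. Python 3.11.15, SciPy 1.17.1 and pandas 2.3.3 were used. Starts are printed with the first base as 1.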

Additional observations from a re-analysis of the deposited data

Results flagged for a closer look

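A contig that hg19 assigns to chromosome 11 without a position has 4 anchors, which lie outside the segments compared above. These anchors shared 21 PETs in shLUC and 45 in shBORIS with the 50 anchors between 69 and 71 Mb of chromosome 11, where random ligation would give 0.127 and 0.158. With the rest of chromosome 11 they shared 7 and 9 PETs, 1.58 and 1.60 times the expected number. The contacts were concentrated at 70037090-70038546, with 9 PETs in shLUC and 15 in shBORIS, and at 70041699-70043023, with 1 and 9. The 69 to 71 Mb window was chosen after these contacts were seen, and no test was made.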

How the results depend on the processing

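Over 22 results and 71 alternatives, 36 values stayed inside the interval, within 1.5 times the count or on the same side of the threshold. Of the others, 26 moved outside these limits, 6 reversed and 3 came to pass the threshold. The distal over middle ratio of interchromosomal PETs per anchor, 0.719 in shLUC and 0.724 in shBORIS, became 0.845 and 0.851 per kb, 0.818 and 0.818 by medians, 0.771 and 0.769 with the boundary 1 Mb towards the centromere, 0.791 and 0.788 within 10 Mb, and 0.943 and 0.965 adjusted for width. It reversed to 1.04 and 1.05 with both of the last settings. The ratio of PETs under 2 Mb became 0.648 and 0.694 with the boundary 1 Mb towards the centromere, 0.734 and 0.735 within 10 Mb, and 0.676 and 0.738 per kb. The ratio of calls became 0.889 in shLUC within 10 Mb, and 0.260 and 0.549 with at least 5 PETs. That minimum left 228 calls in shLUC, 286 in shBORIS, 130 shared, 98 lost and 156 gained. Scaled to PETs of all kinds, whose intrachromosomal share was higher in shBORIS genome-wide, the p arm, middle and distal intrachromosomal ratios passed the threshold at 1.15, 1.09 and 1.18, and the interchromosomal ones reversed to 0.963, 0.977 and 0.984, of which the first 2 passed. With at least 20 PETs in sum, 1 anchor passed the interchromosomal test, at 45065387-45068228. Without pairs over 2 Mb, PETs across the boundary went from 0.935 to 32.4 times the expected number in shLUC, which counts as a reversal, and from 1.01 to 24.8 in shBORIS, since short contacts exceed random ligation at most positions. No paired analysis was possible because both libraries of a group are summed in 1 table, and neither a replicate block nor leaving out a replicate could be fitted. Adjustment for width, the boundary after the third distal anchor and ratios of calls with at least 5 PETs were added after the data were seen. Depth limits the tests to large changes, since most pairs had 1 PET.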
